A study of Homo sapiens with 22 samples.

Results

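The genes described here encode the transcription factor NF-kappaB and the proteins that hold it in check. They were taken from the deposited gene table by symbol, and all 10 were found: the subunits RELA, RELB, REL, NFKB1 and NFKB2, the inhibitors NFKBIA, NFKBIB and NFKBIE, the ubiquitin-editing enzyme TNFAIP3 and the atypical inhibitor protein BCL3. The table holds 34679 genes, of which 16601 passed the filter on low counts, and all 10 passed it, BCL3 through treated libraries. After 6-hydroxydopamine, RELB, NFKBIB, NFKBIE and BCL3 rose in wild-type cells. In cells overexpressing alpha-synuclein, RELA, REL, NFKB2, NFKBIB and BCL3 rose, and the responses of RELB, REL and NFKBIE differed between the genotypes. The calls of RELA and NFKB2 were lost in some alternative fits. Sequencing lane cannot be told apart from the response in alpha-synuclein cells or from the difference between genotypes.

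NF-kappaB is a family of dimers built from RELA (p65), RELB, REL (c-Rel), p50 (made from NFKB1) and p52 (made from NFKB2). IkappaB proteins hold the dimers in the cytoplasm until the IkappaB kinase (IKK) complex marks them for degradation, and the freed dimers enter the nucleus. In the canonical branch RELA and REL act with p50, and in the non-canonical branch the kinase MAP3K14 (NIK) triggers the processing of NFKB2 to p52, which pairs with RELB. Several inhibitors are themselves NF-kappaB targets, so the pathway contains negative feedback loops. In neurons the pathway is known for roles in survival and synaptic plasticity, and in Parkinson disease tissue it has been studied mostly in glia.

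RNA was sequenced from LUHMES cells, a line of human embryonic midbrain origin that stops dividing and becomes dopaminergic-type neurons when its v-myc transgene is switched off. The 6 groups were wild-type cells and alpha-synuclein-overexpressing cells, each untreated (n = 4 libraries per genotype) or given 6-hydroxydopamine (6-OHDA, a dopamine analogue that generates reactive oxygen species, n = 4 per genotype), and alpha-synuclein cells given 6-OHDA together with quercetin (n = 3) or rutin (n = 3). Quercetin is a plant flavonol and rutin is quercetin bearing the sugar rutinose. The labels give no doses, times, promoter or number of clones for the overexpression, and they do not say whether replicates came from separate cultures. The p-values therefore refer to the spread between these libraries alone, which may be technical.

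Library totals ran from 1.87 to 20.67 M counts (M, mega), so 3 counts correspond to 0.168 to 1.49 CPM. CPM are counts divided by the scaled size of the library. Treated alpha-synuclein replicate 4, one of the deeper libraries at 18.61 M counts, scored -1.47 on the first principal component, between the untreated libraries and the other treated ones. Library names place untreated cells of both genotypes and treated wild-type cells on lane 1 and the other 10 libraries on lane 2. All 8 neuronal markers averaged at least 1 CPM in every group, and their summed level was 7258.8 to 7938.9 CPM in untreated and 2870.1 to 3076.7 CPM in treated wild-type libraries. The 9 microglia and macrophage markers summed to 4.56 to 6.21 and 9.07 to 14.4 CPM in those groups. Of these 9, 2 averaged at least 1 CPM in each of those groups, and CSF1R and PTPRC averaged 2.78 and 2.07 CPM in untreated wild-type cells. AIF1, ITGAM, TYROBP and C1QA were at 0 in untreated and CX3CR1 and C1QA at 0 in treated wild-type libraries. Of 6 dopaminergic markers, 5 averaged at least 1 CPM in untreated and 3 in treated wild-type cells, and their sum was 375.7 to 420.1 and 149.7 to 166.7 CPM, with PITX3 at 0 in both groups. The part of these marker levels in the results below was not tested.

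Promoters of several members hold the letters of the NF-kappaB consensus decamer, and these stretches are shown because the feedback between subunits and inhibitors runs through such sites. They come from RefSeq promoter windows on GRCh38.p14, searched on both strands over the 250 bases before each annotated start, and are printed 5′ to 3′ on the strand of the gene with the matching letters in capitals; where matches on the 2 strands overlap, the capitals cover their union. Of 10 members, 8 have a window in that table (RELB and NFKBIE have none), and 6 of these 8 hold a match in at least one of their windows, 7 of 13 windows in all. Among all 35116 windows searched, 5.21% hold a match, and of the 27305 genes searched 6.28% hold one in at least one window. RELA and BCL3 windows hold none of these letters. A match is a description of letters and not of binding, which was not measured.
REL, chr2:60881518-60881547, plus strand: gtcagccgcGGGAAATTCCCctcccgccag
NFKB1, chr4:102501300-102501329, plus strand: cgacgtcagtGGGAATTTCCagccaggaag
NFKB2, second start, chr10:102394462-102394491, plus strand: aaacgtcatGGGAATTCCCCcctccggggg
NFKB2, last start, chr10:102395674-102395703, plus strand: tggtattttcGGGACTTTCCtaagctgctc
NFKBIA, chr14:35404811-35404840, minus strand: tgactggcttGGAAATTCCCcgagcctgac
NFKBIB, chr19:38899932-38899961, plus strand: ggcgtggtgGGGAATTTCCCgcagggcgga
TNFAIP3, chr6:137867188-137867217, plus strand: ctttGGAAAGTCCCgtGGAAATCCCCgggc

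In REL, NFKBIB and the printed stretch of the second NFKB2 start the letters form a near-palindrome that is matched on both strands. TNFAIP3 carries 2 separate matches within the printed 30 bases. The NFKB2 stretches at chr10:102394490-102394519 and chr10:102395519-102395548 also hold a match and are not printed. NFKB1 and REL have their matches 49 and 47 bases before the RefSeq start, and NFKBIB has its match 28 bases before. Of the 6 genes with a match, REL, NFKB2 and NFKBIB were called after 6-OHDA in at least one genotype and NFKB1, NFKBIA and TNFAIP3 in neither. BCL3, without these letters in its windows, was called in both, and RELA, also without them, in alpha-synuclein cells only. Over all tested genes 52% were called in wild-type and 47.1% in alpha-synuclein cells, and the share called in at least one genotype was not counted. A link between these letters and the calls was not tested.

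The levels of the 10 genes differed widely before any treatment. Per kilobase of merged exons (GENCODE 29, GRCh38), untreated wild-type cells had a mean of 13.2 CPM per kb for NFKBIA, 5.89 for NFKBIE, 5.77 for RELA, 4.5 for REL and 3.66 for NFKBIB. The remaining 5 were lower on this scale, at 1.34 for NFKB1, 0.814 for RELB, 0.758 for NFKB2, 0.441 for TNFAIP3 and 0.379 CPM per kb for BCL3. IkappaB-alpha (NFKBIA) thus had the highest level per length of the family, and the canonical subunits RELA and REL were above the non-canonical pair RELB and NFKB2.

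**Figure D1:**
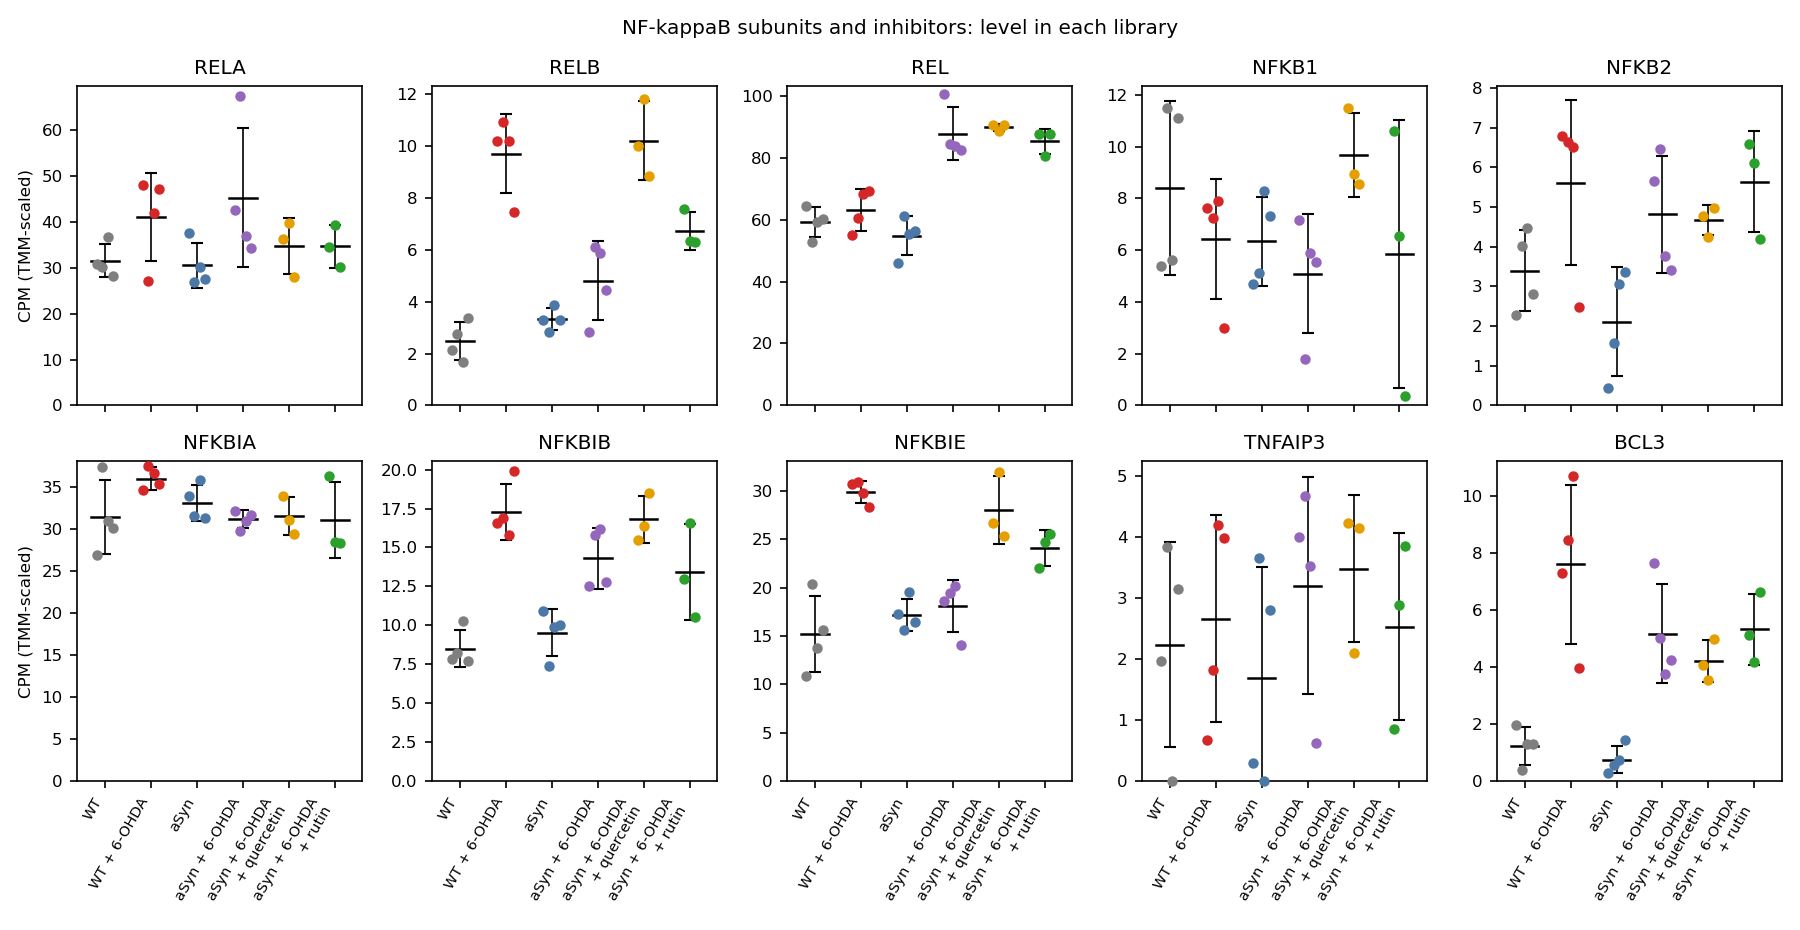
CPM of each gene in every library (points), with the group mean and SD (bars, cut at 0), for the 6 groups, where WT is wild type and aSyn is alpha-synuclein overexpression. RELB, NFKBIE and BCL3 in treated wild-type cells lie above every untreated wild-type library, while NFKBIA stays between 26.9 and 37.5 CPM in all 22 libraries.

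In wild-type cells, both groups of which were on lane 1, 6-OHDA raised 4 of the 10 genes and lowered none. Over all tested genes 52% were called in either direction, 25.8% higher and 26.2% lower, so a count of 4 in 10 is not far from the background. Upper-quartile scaling moved the median of all genes by 0.14 and the share of calls that were higher from 49.5% to 59.7%, and under it RELA, NFKB2 and NFKBIA were called higher as well, 7 of the 10 in all. The median log2 fold change was 0.60 for the 10 genes and 0.07 for all tested genes. BCL3, part of this median and of the 4 called, passed the filter through treated libraries. Calls are at a Benjamini-Hochberg adjusted p under 0.05 from edgeR's quasi-likelihood test over all tested genes, and fold changes are log2 values ± SE. In cultures such as these, a change in the share of a cell type and a change in RNA per cell cannot be told apart.

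RELB, the non-canonical subunit (ENSG00000104856.14, chromosome 19, 45001430 to 45038198, plus strand), had 2.12, 2.74, 1.68 and 3.35 CPM in untreated wild-type replicates 1 to 4. With 6-OHDA it had 10.2, 10.9, 10.2 and 7.46 CPM. The lowest treated library was above the highest untreated one, and the groups did not overlap. The mean rose from 2.47 ± 0.728 (SD, n = 4) to 9.69 ± 1.52 CPM, which is 3.86-fold (log2 1.95 ± 0.24, adjusted p = 4.93e-07).

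Among the subunits, RELB was the only one of the 5 called in wild-type cells. RELA (chromosome 11, 65653596 to 65663094, minus strand), the main transactivating subunit, averaged 31.5 ± 3.59 CPM untreated and 41.1 ± 9.63 CPM treated (0.39 ± 0.20, adjusted p = 0.0999). Its treated replicate 2, at 27.2 CPM, was below all 4 untreated libraries, and without that library RELA was called (0.53, adjusted p = 0.034). REL (chromosome 2, 60881521 to 60931610, plus strand) averaged 59.2 ± 4.87 and 63.2 ± 6.78 CPM, with a 95% interval of the log2 change of -0.13 to 0.28. NFKB1 (chromosome 4, 102501329 to 102617302, plus strand), the p105 precursor of p50, averaged 8.41 ± 3.36 and 6.44 ± 2.32 CPM and spread widely in both groups. NFKB2 (chromosome 10, 102394110 to 102402529, plus strand), the p100 precursor of p52, had 2.29, 4.01, 4.48 and 2.81 CPM untreated and 6.78, 6.65, 6.51 and 2.49 CPM treated. In NFKB2, 3 of 4 treated libraries were above all untreated ones and replicate 4 was not (0.81 ± 0.38, adjusted p = 0.0815), and without replicate 4 it was called (0.97, adjusted p = 0.043).

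Of the IkappaB inhibitors, NFKBIB and NFKBIE rose in wild-type cells and NFKBIA did not pass the test. NFKBIB (IkappaB-beta, ENSG00000104825.17, chromosome 19, 38899700 to 38908893, plus strand) had 7.84, 8.21, 10.3 and 7.68 CPM untreated. With 6-OHDA it had 16.6, 16.9, 15.8 and 19.9 CPM. All treated libraries were above all untreated ones, a 2.03-fold rise (1.02 ± 0.17, adjusted p = 2.31e-05). The gene SIRT2 overlaps NFKBIB on the opposite strand, and since the sources used here do not say whether strand was used, their reads may not be fully separate. SIRT2 changed by 0.31 ± 0.08 in the same comparison (adjusted p = 0.00176), and its part in the NFKBIB value was not tested. Other annotated genes overlap REL and BCL3 on the same strand and RELA and TNFAIP3 on the opposite strand. Their part in those values was not tested either.

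NFKBIE (IkappaB-epsilon, ENSG00000146232.16, chromosome 6, 44258166 to 44265788, minus strand) had 10.9, 20.4, 13.8 and 15.6 CPM in untreated wild-type libraries. With 6-OHDA the values were 30.7, 30.9, 29.8 and 28.3 CPM. The treated libraries lay close together and all above the untreated ones, whose spread was wider, and the change was 0.98 ± 0.16 (adjusted p = 1.75e-05). NFKBIA (IkappaB-alpha, chromosome 14, 35401511 to 35404749, minus strand), often used as a readout of NF-kappaB activity, had 26.9, 37.4, 31.0 and 30.1 CPM untreated and 34.6, 37.5, 36.7 and 35.3 CPM treated. Its groups overlapped through untreated replicate 2, the change was 0.20 ± 0.11 (adjusted p = 0.125), and without that library it was called (0.29, adjusted p = 0.0248).

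BCL3, an IkappaB-like nuclear protein that binds p50 and p52 dimers, showed the widest range among the 10 genes, 3.05 log2 units between its highest and lowest group mean. It lies on chromosome 19 at 44747705 to 44760044 (ENSG00000069399.15, plus strand). Untreated wild-type libraries had 1.96, 0.365, 1.31 and 1.30 CPM, near the limit set by 3 counts, and treated ones 7.31, 8.47, 10.7 and 3.98 CPM. No treated library reached down to the untreated range, and the change was 2.60 ± 0.40 (adjusted p = 1.05e-05). BCL3 averaged 1.23 CPM in untreated wild-type and 0.748 CPM in untreated alpha-synuclein cells. It therefore passed the filter on low counts through treated libraries, where it was high. TNFAIP3 (A20, chromosome 6, 137867188 to 137883312, plus strand), which removes activating ubiquitin chains from pathway proteins, had 1.96, 3.83, 0 and 3.14 CPM untreated and 0.678, 1.81, 4.19 and 3.98 CPM treated. With counts of 0 to 29 per library, its interval of -2.20 to 1.88 leaves both directions possible at this depth.

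In alpha-synuclein cells 6-OHDA raised 5 of the 10 genes and lowered none, where 47.1% of all tested genes were called, 22.9% higher and 24.2% lower. The median log2 change was 0.55 for the 10 genes and 0.05 for all tested genes. Here too, BCL3 is part of the count and the median and passed the filter through treated libraries. Upper-quartile scaling moved that background median by 0.13 and the share of calls that were higher from 48.6% to 61%, and under it RELB was called too (0.59, adjusted p = 0.0336). Untreated and treated alpha-synuclein cells were on different lanes, so lane and treatment cannot be told apart in this comparison.

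BCL3 rose as in wild-type cells, from 0.286, 0.551, 0.726 and 1.43 CPM to 7.64, 5.02, 3.76 and 4.26 CPM in replicates 1 to 4. The lowest treated library was above the highest untreated one (2.65 ± 0.37, adjusted p = 5.78e-06). Without both untreated libraries that carry several barcode numbers in their names, replicates 3 and 4, the change was 3.46 (adjusted p = 2.45e-05). NFKBIB had 10.9, 7.37, 9.89 and 10.0 CPM untreated and 12.5, 15.8, 16.2 and 12.8 CPM treated, again without overlap (0.57 ± 0.16, adjusted p = 0.00442). SIRT2, the overlapping gene, changed by -0.07 ± 0.07 here.

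REL, the subunit best known from lymphocytes, had 46.1, 61.2, 55.3 and 56.3 CPM in untreated alpha-synuclein libraries. After 6-OHDA it had 100.4, 84.3, 83.9 and 82.3 CPM. Every treated library exceeded every untreated one, and the mean rose from 54.8 ± 6.29 to 87.7 ± 8.48 CPM (0.68 ± 0.09, adjusted p = 4.58e-06). The T cell markers CD3D and CD3E were at 0 in both groups, and the 6 lymphocyte markers summed to 2.35 to 3.03 CPM untreated and 3.58 to 9.33 CPM treated. Of these 6, 1 averaged at least 1 CPM in each group.

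RELA and NFKB2 passed the test with less margin. RELA had 37.6, 26.8, 30.1 and 27.6 CPM untreated and 42.5, 67.5, 36.9 and 34.4 CPM treated, with overlapping groups and 1 high library, replicate 2 (0.54 ± 0.19, adjusted p = 0.0215). Without treated replicate 2 the change was 0.33 and was not called (adjusted p = 0.127), and it was likewise not called without untreated replicate 2 (0.49, adjusted p = 0.0576) or replicate 4 (0.50, adjusted p = 0.056), nor without both untreated libraries with several barcodes (0.47, adjusted p = 0.14). NFKB2 had 0.429, 1.58, 3.07 and 3.37 CPM untreated and 5.65, 6.46, 3.76 and 3.41 CPM treated, groups that lie side by side without overlapping (1.02 ± 0.37, adjusted p = 0.026). Its call was lost without treated replicate 1 (adjusted p = 0.082), treated replicate 2 (0.0692) or untreated replicate 2 (0.0701), and with only the compared groups in the fit (1.04, adjusted p = 0.0755). Without the untreated libraries with several barcodes the change was 2.02 (adjusted p = 0.00116).

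RELB and NFKBIE, which rose in wild-type cells, were not called in alpha-synuclein cells. RELB had 3.29, 2.82, 3.86 and 3.31 CPM untreated and 2.82, 6.10, 5.87 and 4.43 CPM treated. In replicate 1 the treated value was as low as the lowest untreated one, and the other 3 were higher than all untreated libraries (0.47 ± 0.22, adjusted p = 0.0844). Without treated replicate 1 RELB was called (0.67, adjusted p = 0.0182). NFKBIE had 17.3, 15.6, 19.5 and 16.4 CPM untreated and 18.6, 19.4, 20.2 and 14.1 CPM treated, with overlapping groups and a 95% interval of -0.27 to 0.36 (0.04 ± 0.15, adjusted p = 0.834). NFKB1, NFKBIA and TNFAIP3 were not called either, with changes of -0.26 ± 0.41, -0.08 ± 0.10 and 0.66 ± 0.85.

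**Figure D2:**
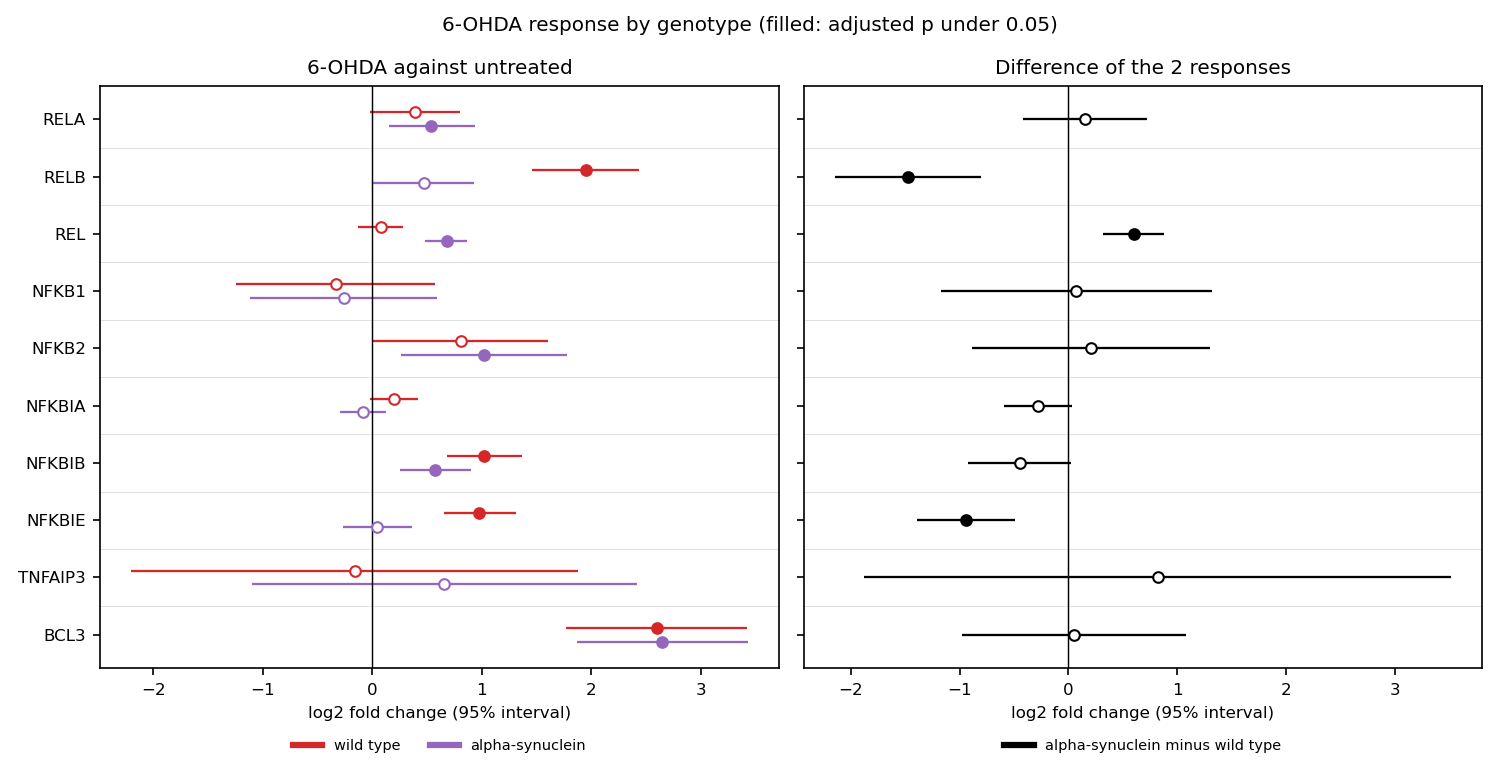
Left, log2 fold change after 6-OHDA in wild-type (red) and alpha-synuclein cells (purple); right, the difference between these responses. Bars are 95% intervals and filled points passed an adjusted p of 0.05; RELB and NFKBIE lie left of 0 and REL right of 0 in the difference.

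The difference between the responses was tested directly as the interaction of genotype and 6-OHDA, for which 21.6% of all tested genes were called. It was called for 3 of the 10 genes. RELB responded less in alpha-synuclein cells, by -1.48 ± 0.32 (adjusted p = 0.00312), and NFKBIE by -0.94 ± 0.22 (adjusted p = 0.00421). REL responded more, by 0.60 ± 0.14 (adjusted p = 0.00383). For the remaining 7 genes the interaction was not called, and their intervals ranged from -0.59 to 0.03 for NFKBIA, the narrowest, to -1.88 to 3.52 for TNFAIP3, the widest. NFKBIB had an interaction of -0.45 ± 0.23 (adjusted p = 0.17) and BCL3 of 0.05 ± 0.50 (adjusted p = 0.965). Since the treated alpha-synuclein libraries were on lane 2 and the other 3 groups on lane 1, lane and this difference cannot be told apart.

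Without treated alpha-synuclein replicate 4, the library that stands apart, the interactions were -1.44 for RELB (adjusted p = 0.00601), 0.64 for REL (adjusted p = 0.00319) and -0.81 for NFKBIE (adjusted p = 0.00925). The number of the 10 genes called after 6-OHDA in alpha-synuclein cells was 5 with and without that library.

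Among treated cells, the genotypes differed in the same 3 genes, where 27.3% of all tested genes were called. Treated alpha-synuclein cells had 2.82 to 6.10 CPM of RELB against 7.46 to 10.9 in treated wild-type cells (-1.08 ± 0.23, adjusted p = 0.00123). NFKBIE was 14.1 to 20.2 CPM against 28.3 to 30.9 (-0.76 ± 0.16, adjusted p = 0.00117), and REL was 82.3 to 100.4 CPM against 54.9 to 69.1 (0.49 ± 0.10, adjusted p = 0.000925). None of these 3 pairs of groups overlapped, and the share of all tested genes without overlap was not counted. NFKBIA did not overlap either, at 29.8 to 32.2 against 34.6 to 37.5 CPM, but was not called (-0.20 ± 0.11, adjusted p = 0.181). This comparison shares the treated alpha-synuclein libraries with the 6-OHDA comparison in that genotype, and lane and genotype cannot be told apart in it. The interaction is this difference minus the genotype difference in untreated cells, so finding the same genes is not a second, separate result.

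Without 6-OHDA, alpha-synuclein overexpression was accompanied by no called change among the 10 genes, where 0.651% of all tested genes were called. By edgeR 0 members passed at an adjusted p under 0.05 and 0 at an unadjusted p under 0.05, and DESeq2 called 0. The log2 changes ran from -0.62 ± 0.44 for BCL3 to 0.39 ± 0.23 for RELB. The narrowest interval was that of REL, -0.30 to 0.09. All 10 pairs of groups overlapped, and overlap was not counted over all tested genes.

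Quercetin was compared with 6-OHDA alone in alpha-synuclein cells, on lane 2 throughout. It was accompanied by higher RELB and NFKBIE, 2 of the 10 genes, where 2.53% of all tested genes were called, 0.560% higher and 1.97% lower. Of all calls 22.1% were higher, and 39% with upper-quartile scaling. RELB had 9.98, 11.8 and 8.84 CPM with quercetin against 2.82, 6.10, 5.87 and 4.43 CPM with 6-OHDA alone, without overlap (1.14 ± 0.22, adjusted p = 0.0131). NFKBIE had 26.7, 32 and 25.3 CPM with quercetin against 18.6, 19.4, 20.2 and 14.1 CPM, also without overlap (0.66 ± 0.16, adjusted p = 0.0325). The quercetin means of 10.2 ± 1.51 CPM for RELB and 28.0 ± 3.50 CPM for NFKBIE lie beside the treated wild-type means of 9.69 ± 1.52 and 29.9 ± 1.14 CPM, a pair of groups on different lanes that was not tested. REL, which also differed between the treated genotypes, averaged 89.8 ± 1.05 CPM with quercetin and 63.2 ± 6.78 CPM in treated wild-type cells. The quercetin comparison and that of the treated genotypes share the same treated alpha-synuclein libraries.

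Both quercetin calls depended on single libraries. Without treated alpha-synuclein replicate 4, RELB was 1.11 (adjusted p = 0.0518) and NFKBIE 0.53 (adjusted p = 0.143), and without quercetin replicate 2 they were 1.02 (adjusted p = 0.0744) and 0.55 (adjusted p = 0.183). NFKBIE was also not called without quercetin replicate 1 (adjusted p = 0.0851) or replicate 3 (adjusted p = 0.065). With only the compared groups in the fit neither was called (adjusted p = 0.174 for RELB and 0.206 for NFKBIE). The microglia and macrophage markers summed to 12.4 to 17 CPM with quercetin and 6.93 to 13.6 CPM without, and their part in these values was not tested.

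The remaining 8 genes were not called with quercetin. REL, high after 6-OHDA in this genotype, was 90.4, 88.6 and 90.4 CPM with quercetin (0.03 ± 0.10, 95% interval -0.18 to 0.24), and NFKBIA was 33.9, 31.1 and 29.4 CPM (0.01 ± 0.11). BCL3 was 4.08, 3.53 and 4.98 CPM (-0.30 ± 0.35). NFKB1 had 11.5, 8.95 and 8.56 CPM, all above the 1.79 to 7.15 CPM of 6-OHDA alone, but the change of 0.84 ± 0.43 was not called (adjusted p = 0.343).

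**Figure D3:**
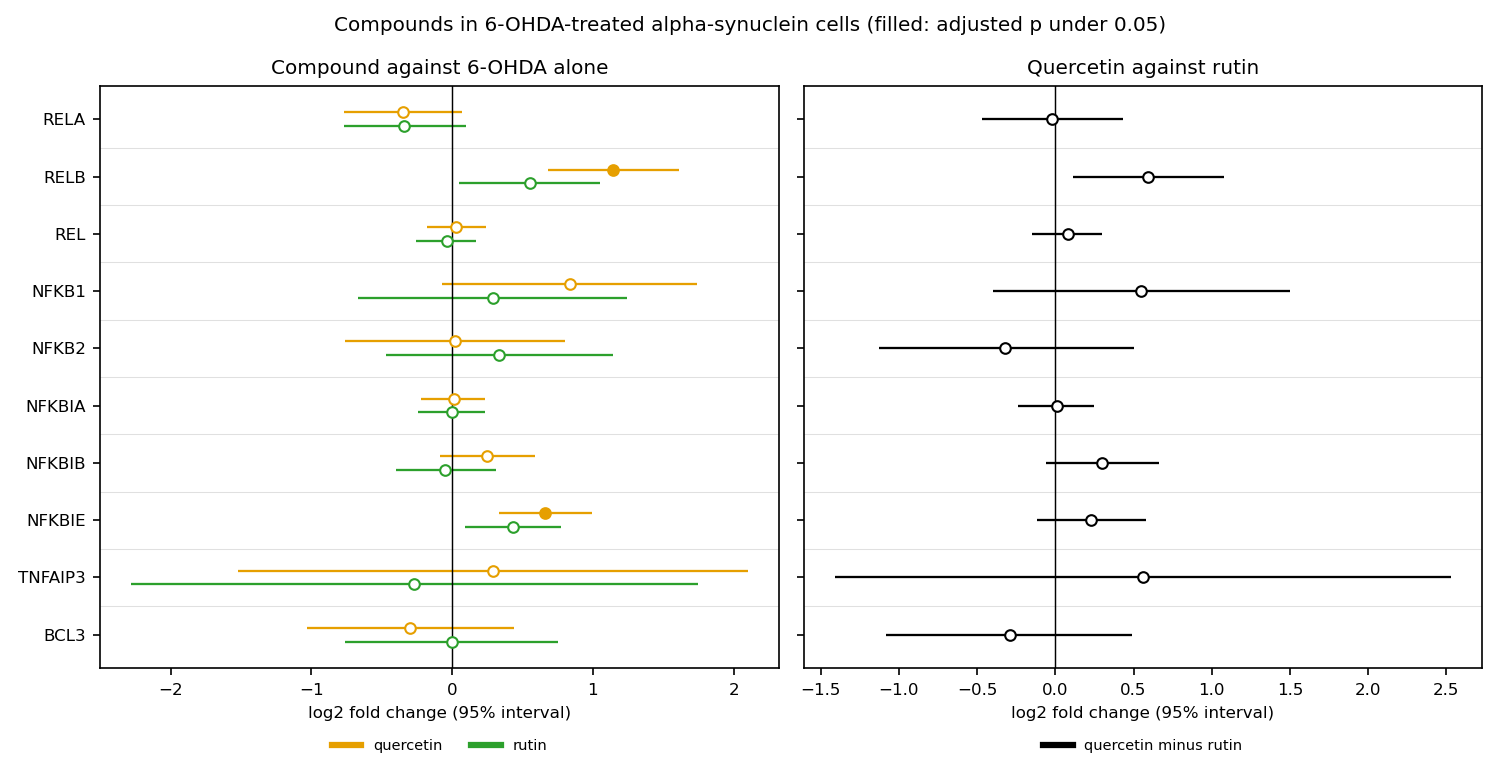
Left, log2 fold change against 6-OHDA alone with quercetin (orange) or rutin (green); right, quercetin against rutin. Bars are 95% intervals and filled points passed an adjusted p of 0.05; RELB and NFKBIE with quercetin are the filled points.

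With rutin none of the 10 genes was called, and 0% of all tested genes were, with 1790 genes at an unadjusted p under 0.05 and 174 called by DESeq2. By edgeR 2 members, RELB and NFKBIE, had an unadjusted p under 0.05, and DESeq2 called 0 members. RELB had 7.58, 6.32 and 6.30 CPM, above the 2.82 to 6.10 CPM of 6-OHDA alone (0.55 ± 0.24, 95% interval 0.05 to 1.05, adjusted p = 0.402). NFKBIE had 22.0, 24.7 and 25.5 CPM, above 14.1 to 20.2 CPM (0.43 ± 0.17, adjusted p = 0.334). REL, BCL3 and NFKBIA differed from 6-OHDA alone by -0.04 ± 0.10, 0.00 ± 0.36 and 0.00 ± 0.11. NFKB1 had 10.6, 6.54 and 0.35 CPM, the last from 1 count in the shallowest rutin library.

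The 2 related compounds were compared directly, 1 pair, at doses and times that the labels do not give. None of the 10 genes was called between them, where 0.00602% of all tested genes were called. At an unadjusted p under 0.05 edgeR gave 1 member, RELB, and DESeq2 called 0 members. RELB was 8.84 to 11.8 CPM with quercetin and 6.30 to 7.58 CPM with rutin, without overlap (0.59 ± 0.23, 95% interval 0.11 to 1.08, adjusted p = 0.44). NFKBIE was 25.3 to 32 and 22.0 to 25.5 CPM (0.23 ± 0.17, 95% interval -0.12 to 0.58). A p that misses the threshold does not show that quercetin and rutin act alike on these genes, and for RELB the interval lay above 0.

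For RELB the 6 group means ran from untreated wild-type (2.47 CPM) over untreated alpha-synuclein (3.32), treated alpha-synuclein (4.81), rutin (6.73) and treated wild-type (9.69) to quercetin (10.2). Of the neighbours in this order, untreated wild-type and untreated alpha-synuclein, the untreated and treated alpha-synuclein groups, and treated alpha-synuclein and rutin were not called apart; rutin and treated wild-type libraries overlapped, as did treated wild-type and quercetin libraries. Over all 22 libraries, RELB followed NFKBIE and NFKBIB most closely among the 10 genes, with Pearson r of 0.89 and 0.81 on log2 CPM, given as a description since the libraries share groups and lanes. The genes whose log2 CPM most resembled that of BCL3 over the 22 libraries were OSGIN1 (r = 0.954), PIR (0.947), RPS5P3 (0.94), TMEM165 (0.936) and EPS15P1 (0.932).

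The other genes of the pathway were read from lists of 86 distinct genes, of which 83 are in the table and 54 were tested. Ligand transcripts were low. Of 12 ligand genes 2 were tested, TNFSF10 and TNFSF13B, and neither was called in any of the 8 comparisons by edgeR or DESeq2 with all libraries. IL1B, IL6, CXCL8 and LTA reached at most 3, 2, 1 and 2 counts in any library, and TNF was not analysed here. CD40LG, the highest of the ligands that were not tested, reached 16 counts. Among target genes the chemokines CXCL1 and CCL2 are listed at 0 in every library, and ICAM1 reached at most 12 counts and VCAM1 at most 1.

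Of 18 receptors and adaptors tested, 9 were higher and 3 lower after 6-OHDA in wild-type cells, and 8 were higher and 1 lower in alpha-synuclein cells. Over all tested genes 52% and 47.1% were called in the 2 genotypes, 25.8% and 22.9% higher. The list's median log2 change was 0.88 and 0.33 in the 2 genotypes, beside 0.07 and 0.05 over all tested genes. TNFRSF1A, the main TNF receptor, rose by 1.05 ± 0.11 and 0.67 ± 0.11, and TNFRSF10B, a TRAIL receptor, by 1.55 ± 0.22 and 1.40 ± 0.20 in wild-type and alpha-synuclein cells. TNFRSF12A, the TWEAK receptor, rose by 2.33 ± 0.28 in wild-type and 1.15 ± 0.24 in alpha-synuclein cells, and its interaction was called (-1.18 ± 0.38, adjusted p = 0.0276). TRAF3, which keeps MAP3K14 low, fell by 0.42 on the log2 scale in wild-type and by 0.65 in alpha-synuclein cells, and its interaction was not called (adjusted p = 0.252).

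Of 11 IKK components and upstream kinases, 2 rose and 4 fell in wild-type cells, and 2 rose and 2 fell in alpha-synuclein cells, or 6 and 4 of 11 in all beside 52% and 47.1% of all tested genes, with medians of -0.28 and -0.26 beside 0.07 and 0.05. Without treated alpha-synuclein replicate 4, 7 of the 11 were called in that genotype. TBK1, an IKK-related kinase, rose by 2.06 ± 0.27 and 1.83 ± 0.25. TAB2, an adaptor of the kinase MAP3K7, fell in wild-type cells from 168.7 ± 11.4 to 82.6 ± 3.48 CPM, and its interaction was called (0.78 ± 0.15, adjusted p = 0.00164). IKBKG, the regulatory IKK subunit NEMO, fell in alpha-synuclein cells (-0.32 ± 0.09, adjusted p = 0.00562).

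Of 14 other inhibitors and deubiquitinases tested, 6 rose and 5 fell in wild-type cells, and 5 rose and 3 fell in alpha-synuclein cells, beside 52% and 47.1% of all tested genes called either way, with medians of 0.38 and 0.06. NFKBIZ, an atypical nuclear IkappaB like BCL3, rose by 2.35 ± 0.21 and 2.00 ± 0.19. NKRF, a repressor of NF-kappaB promoters, fell by 0.96 and 0.46 on the log2 scale and its interaction was called (0.50 ± 0.11, adjusted p = 0.0026). RNF11, a partner of TNFAIP3, differed most between the genotypes among called genes of this list, with an interaction of -1.75 ± 0.38 (adjusted p = 0.00278). For alpha-synuclein in untreated cells, quercetin, rutin, and quercetin against rutin, edgeR called no listed gene. Of the 54 tested, 7, 8, 2 and 2 had an unadjusted p under 0.05 in these comparisons, and DESeq2 called 1, a receptor or adaptor gene with quercetin.

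Of 12 tested target genes, 6 rose and 2 fell in wild-type cells and 7 rose and 2 fell in alpha-synuclein cells, beside 25.8% higher and 26.2% lower, and 22.9% higher and 24.2% lower, over all tested genes. The medians were 1.1 and 0.98. Both the counts and the medians include genes, named below, that passed the filter through treated libraries, so they are not free of that selection. The list holds 35 genes, 32 of them in the table, and only these 12 passed the filter. MAP3K8 and CSF1 averaged 0.0679 and 0.154 CPM in untreated wild-type and 0.163 and 0.204 CPM in untreated alpha-synuclein cells. These levels are near or below those of 3 counts, so both genes passed the filter through treated libraries. In the same 2 untreated groups IRF1 averaged 0.965 and 1.03 CPM, BIRC3 1.25 and 1.06 CPM, and GADD45B 1.43 and 0.828 CPM. IRF1, BIRC3 and GADD45B also needed treated libraries to pass. Among the genes counted as rising are MAP3K8, IRF1 and GADD45B in both genotypes and CSF1 and BIRC3 in alpha-synuclein cells. GADD45B, a stress-response gene, rose from 1.43 ± 0.304 to 24.9 ± 6.45 CPM in wild-type cells and from 0.828 ± 0.374 to 17.5 ± 4.88 CPM in alpha-synuclein cells (4.05 ± 0.27 and 4.22 ± 0.26). IRF1 rose by 3.64 ± 0.30 and 3.16 ± 0.27. SOD2, the mitochondrial superoxide dismutase, fell by 1.66 on the log2 scale in wild-type and by 1.5 in alpha-synuclein cells, where it went from 97.4 ± 17.5 to 32.7 ± 18.7 CPM. NFKBIZ and TNIP1 are in both this list and the inhibitor list. Many of these genes also answer to other stress pathways, so the list is not a measure of NF-kappaB activity.

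**Figure D4:**
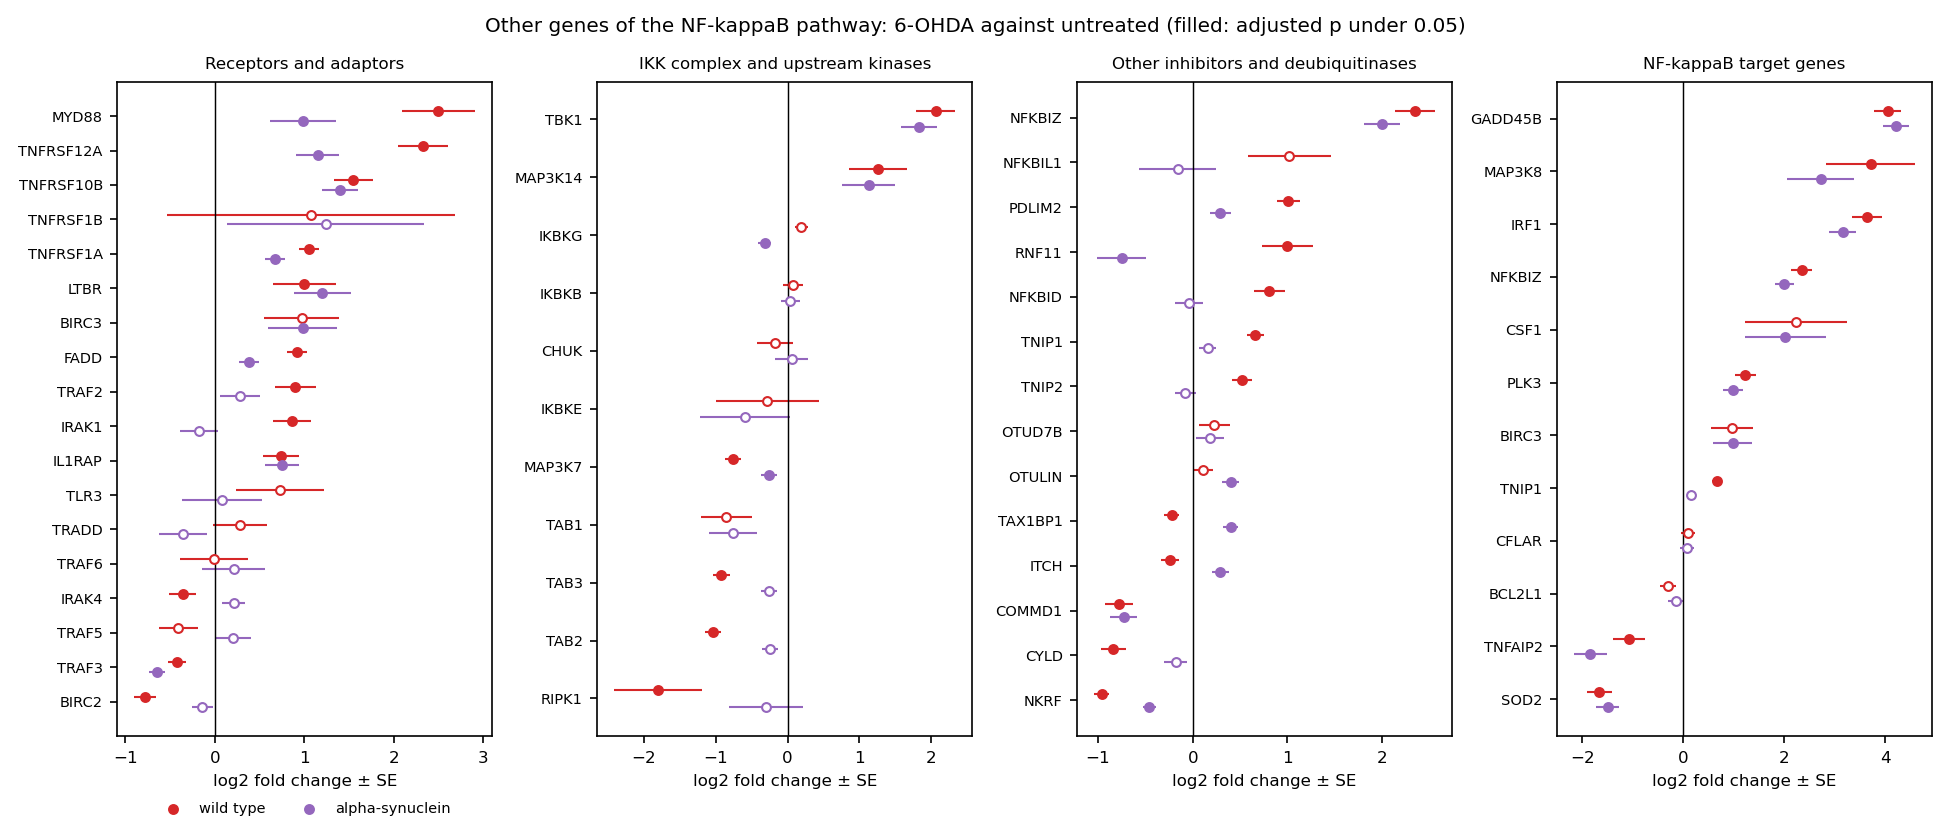
Log2 fold change ± SE after 6-OHDA for the tested receptors and adaptors, kinases, other inhibitors and target genes in wild-type (red) and alpha-synuclein cells (purple); filled points passed an adjusted p of 0.05. Each panel has genes on both sides of 0, among them GADD45B at 4.05 and 4.22 and SOD2 at -1.66 and -1.5 in wild-type and alpha-synuclein cells.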

How the data were processed

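Polyadenylated RNA of 22 libraries was analysed from raw estimated counts per gene, which the authors deposited as whole numbers. Per the submitters' processing notes, the tools include kallisto 0.46.2 and Trimmomatic 0.38 and the builds hg38 and GRCh38, with no role or order stated. Annotation, the step from transcripts to genes and strand use, not given in the sources used here, could change single values. Reads shared by transcripts are apportioned by kallisto, so levels of overlapping or similar genes are uncertain. Groups came from the sample titles.

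In R 4.3.3 the estimated counts were rounded and tested with edgeR 4.0.16: filterByExpr with a minimum count of 10 (0.174% of counts set aside), TMM scaling, and glmQLFit and glmQLFTest on group means of all 22 libraries, without a replicate block. Each SE follows from the log2 change and the square root of its F value. Levels are CPM on TMM-scaled library sizes, and log2 CPM used a prior count of 2. Floors cover counting error only, and intervals only the spread between libraries. Replicate pairs differed by more than sampling noise (chi-square per degree of freedom 2.87 to 26.4), so none was treated as a copy. Alternatives were RLE and upper-quartile scaling, no filter, only the compared groups, a replicate block, DESeq2 1.42.0, each library left out, and both libraries with several barcodes left out.

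All 10 members were named in every comparison, from each list up to 4 called genes with the smallest adjusted p, and the 5 genes most correlated with the member of widest range. Ligands, genes below the filter, MAP3K8, CSF1, BIRC3, the markers CSF1R and PTPRC, and the wild-type values of TRAF3 and SOD2 were named after their values were seen. Members, lists and tests were chosen with earlier results of these data known. Gene IDs of all 10 members matched GENCODE 29 without their version and 3 with it.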

Additional observations from a re-analysis of the deposited data

Results flagged for a closer look

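RELB, REL and NFKBIE responded differently to 6-OHDA in the 2 genotypes, by the interaction test: the response in alpha-synuclein cells minus that in wild-type cells was -1.48 for RELB, 0.60 for REL and -0.94 for NFKBIE (log2). Each was called in all 23 alternatives run for it, and lane cannot be told apart from this difference.

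In 3 of 40 sets of 4 libraries, 1 library stood far from the other 3, where chance flags about 1 in 20. REL was 100.4 CPM in treated alpha-synuclein replicate 1, against 82.3 to 84.3 CPM in the others. Treated wild-type replicate 4, with the lowest total of all libraries, had 2.98 CPM of NFKB1 and 2.49 CPM of NFKB2.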

How the results depend on the processing

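No called value changed sign under any alternative. Of 1190 alternative values for the 10 genes, 17 lost a call and 8 gained one. In wild-type cells 4 genes were called after 6-OHDA, 7 with upper-quartile scaling, and 4 to 5 when single libraries were left out. In alpha-synuclein cells the count of 5 became 3 to 5 without single libraries. Single libraries did not move the counts of 0 (alpha-synuclein in untreated cells, rutin, quercetin against rutin) or 3 (alpha-synuclein in 6-OHDA cells, interaction). The 2 quercetin calls became 0 to 2 without single libraries and 0 with only the compared groups.

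The replicate numbers are not stated to pair samples, and same-numbered libraries did not deviate together (r from -0.138 to 0.063). With a replicate block, 1 of the 10 genes was called with quercetin, since NFKBIE was at 0.61 (adjusted p = 0.0814), and 120 genes in all. No other member call changed under the block.

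Over all genes, alpha-synuclein in untreated cells gave 108 calls, 24 with only the compared groups, 215 with DESeq2 and 11 without the libraries with several barcodes. The interaction gave 3594, and 2008 without those libraries. Quercetin gave 420, 2 with only the compared groups and 789 with DESeq2. Rutin gave 0, 2 with RLE scaling, 4 without the filter and 174 with DESeq2. Quercetin against rutin gave 1, 30 with upper-quartile scaling (83.3% higher), 8 without the filter, 4 with only the compared groups and 90 with DESeq2. The causes were not tested. Leaving out single libraries gave 7700 to 8393 calls for 6-OHDA in wild-type and 6711 to 8529 in alpha-synuclein cells, 33 (without untreated alpha-synuclein replicate 4) to 232 (without its replicate 2) for alpha-synuclein in untreated and 3708 to 4359 in treated cells, 2839 to 4278 for the interaction, 33 (without quercetin replicate 2) to 895 (without treated alpha-synuclein replicate 1) for quercetin, 0 to 144 (again without treated alpha-synuclein replicate 1) for rutin and 0 to 1 between the compounds. Depth limits TNFAIP3, NFKB1 and BCL3 most, with 0 to 2 counts in some libraries.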
